A study of Mus musculus with 18 samples.

Results

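The insulin-like growth factor receptor axis was followed here through 5 genes, Igf1r, Igfbp4, Igf2r, Insr and Irs2, of the 15137 genes with a deposited value. The genes were chosen by their names and from measured values, because Igf1r rose and Igfbp4 fell when naive CD4+ T cells were cultured. The difference between cultured and fresh cells is therefore given for these 5 genes as a description with no test, and tests are given on genotype and, for Igf2r, Insr and Irs2, on stimulation. All 5 genes passed the minimum level for testing.

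RNA was sequenced from naive CD4+ T cells sorted from the spleens of C57BL/6J mice as CD3+ CD4+ CD25- CD62L+ CD44-. Cells came from control mice or from mice with a conditional knockout of Creld1 by CD4-Cre, called Creld1 cKO, in which CD4 regulatory sequences drive Cre from thymocyte development onward, so the gene is deleted in other T cells too. No further allele of the control mice is given in the labels. For each genotype there were 3 libraries of freshly isolated cells, 3 of cells cultured for 8 h without stimulation and 3 of cells cultured for 8 h with antibodies to CD3 and CD28 at 1 µg/ml, 18 libraries in 6 groups. Both cultures used IMDM medium with fetal calf serum. The labels carry 1 mouse identifier for all libraries of a group, so p-values measure the spread between libraries, which may be technical.

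Insulin-like growth factors and insulin are hormones that bind related receptor tyrosine kinases on the cell surface. The kinases phosphorylate adaptors of the insulin receptor substrate family, which recruit PI3K, and Akt and mTORC1 then promote nutrient uptake, protein synthesis and survival, while Foxo factors are held out of the nucleus. Secreted binding proteins hold the growth factors outside the cell, and the Igf2 receptor removes Igf2 and carries mannose 6-phosphate-tagged enzymes to lysosomes. In naive T cells Foxo1 keeps genes of homing and survival on, and signals through PI3K and Akt counter it.

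The values were on a log2 scale, and differences of 1 on it are changes of a factor of 2 on the linear scale. On that linear scale a library summed to between 6782465 and 7419367, and the read depth behind the values is unknown. Of the naive CD4 T cell markers 8 of 8 reached the minimum level, against 2 of 7 of B cells, 2 of 7 of myeloid cells, 2 of 6 of CD8 T and NK cells and 0 of 5 measured stromal genes. The regulatory T cell markers reached it in 4 of 4 cases and the memory and effector markers in 3 of 6. Among them, Il2ra, which encodes the CD25 of the sort, had a mean of 6.6, and Cd44 had a mean of 7.55. Of the myeloid markers, Cd68 and Itgam reached the minimum, with means of 4.68 and 4.47, while the macrophage marker Adgre1 had a mean of 0.08. Creld1 itself averaged 4.58 in control and 4.10 in Creld1 cKO fresh cells, 5.03 and 4.03 in unstimulated culture, and 4.74 and 4.38 in stimulated culture. Its genotype difference averaged over the conditions was -0.62 ± 0.13 (SE, limma adjusted p = 0.344), so the labelled deletion was not called across all genes. One library stood apart within its own group, the third of fresh Creld1 cKO cells. Libraries differed in how their values leaned with the GC content of transcripts, measured as a GC slope (the slope of a library's deviations from each gene's mean on transcript GC content). This library had a slope of 0.159, against -0.193 and -0.312 in the other libraries of its group. Over all 18 libraries the slopes ran from -0.312 to 0.24, so 0.159 was not extreme among them. Which library of the group was unusual was not tested. Values of the 5 genes that use the third library are given below with and without it.

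Promoter sequences are shown for Igf1r and Igfbp4, the members with the largest differences in culture, and for Irs2, which was lower in culture together with Igfbp4. Each is the 250 bases before the RefSeq start on GRCm38.p6, 5′ to 3′ on the strand of the gene, with capitals marking matches to the searched motifs. The Igf1r window is chr7:67952007-67952256 on the plus strand, that of Igfbp4 is chr11:99040994-99041243 on the plus strand, and that of Irs2 is chr8:11008930-11009179 on the minus strand.
Igf1r: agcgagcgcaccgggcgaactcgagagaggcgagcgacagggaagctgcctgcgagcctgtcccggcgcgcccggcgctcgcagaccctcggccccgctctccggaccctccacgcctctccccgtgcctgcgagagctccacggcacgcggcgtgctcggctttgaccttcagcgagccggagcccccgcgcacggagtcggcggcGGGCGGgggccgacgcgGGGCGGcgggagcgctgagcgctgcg
Igfbp4: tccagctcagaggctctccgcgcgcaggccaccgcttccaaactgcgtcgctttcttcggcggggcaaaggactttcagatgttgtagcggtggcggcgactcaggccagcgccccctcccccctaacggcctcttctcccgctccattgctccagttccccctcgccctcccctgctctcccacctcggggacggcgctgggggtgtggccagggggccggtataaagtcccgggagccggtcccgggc
Irs2: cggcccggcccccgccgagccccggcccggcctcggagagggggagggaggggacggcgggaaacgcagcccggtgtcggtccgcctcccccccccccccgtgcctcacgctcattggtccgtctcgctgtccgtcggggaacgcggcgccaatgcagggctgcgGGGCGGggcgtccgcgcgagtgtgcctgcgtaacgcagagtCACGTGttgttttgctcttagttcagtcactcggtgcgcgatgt

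The windows were rich in G and C, at 77.6% for Igf1r, 69.2% for Igfbp4 and 72.8% for Irs2. Motifs were searched on both strands from 250 bases before to 50 after the start, and RefSeq promoters were matched for 4 of the 5 genes, Igf1r, Igfbp4, Igf2r and Irs2. The motifs were the Foxo site GTAAACA, the AP-1 site TGANTCA, the E-box CACGTG, the NFAT core GGAAAA and the GC box GGGCGG bound by Sp and Klf factors. Igf1r held 2 GC boxes, 43 and 26 bases before the start. Irs2 held 1 E-box, 44 bases before the start, and 1 GC box, 85 bases before it. Igf2r held 2 E-boxes and 3 GC boxes, and none of the motifs was found in the Igfbp4 window. All distances count from the RefSeq start, which for Igf1r and Irs2 lies upstream of the gene span given below. Of all 32851 promoters of the same length, 35.7% held the GC box, 7.15% the E-box, 23.4% the NFAT core, 7.81% the AP-1 site and 3.65% the Foxo site.

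Igf1r, the receptor tyrosine kinase for Igf1 and Igf2, lies at chr7:67952827-68233668 on the plus strand (GENCODE M21, GRCm38). Its log2 values were 8.96, 9.03 and 9.05 in fresh control cells and 8.89, 8.90 and 8.98 in fresh Creld1 cKO cells. After 8 h without stimulation they were 10.77, 10.77 and 10.62 in control and 10.66, 10.73 and 10.78 in Creld1 cKO cells. With stimulation they were 10.68, 10.79 and 10.78 in control and 10.57, 10.75 and 11.01 in Creld1 cKO cells. All 12 cultured libraries, from 10.57 to 11.01, lay above all 6 fresh libraries, from 8.89 to 9.05. The difference between unstimulated culture and fresh cells was 1.71 ± 0.09 (SE) in control cells, a 3.26-fold higher level, and 1.8 ± 0.09 in Creld1 cKO cells, a 3.49-fold higher level. By size these were rank 41 and rank 27 among the 10877 genes tested. Stimulated culture differed from fresh cells by 1.74 in control and 1.85 in Creld1 cKO cells. Without the third fresh Creld1 cKO library the differences in Creld1 cKO cells were 1.83 in unstimulated and 1.88 in stimulated culture. In control cells 14.9% of the tested genes were called higher in unstimulated culture and 14.1% lower. In Creld1 cKO cells the shares were 10.7% higher and 11.4% lower. As the genes were chosen on this contrast, nothing is read from their place in it or from the separation of their libraries.

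**Figure D1:**
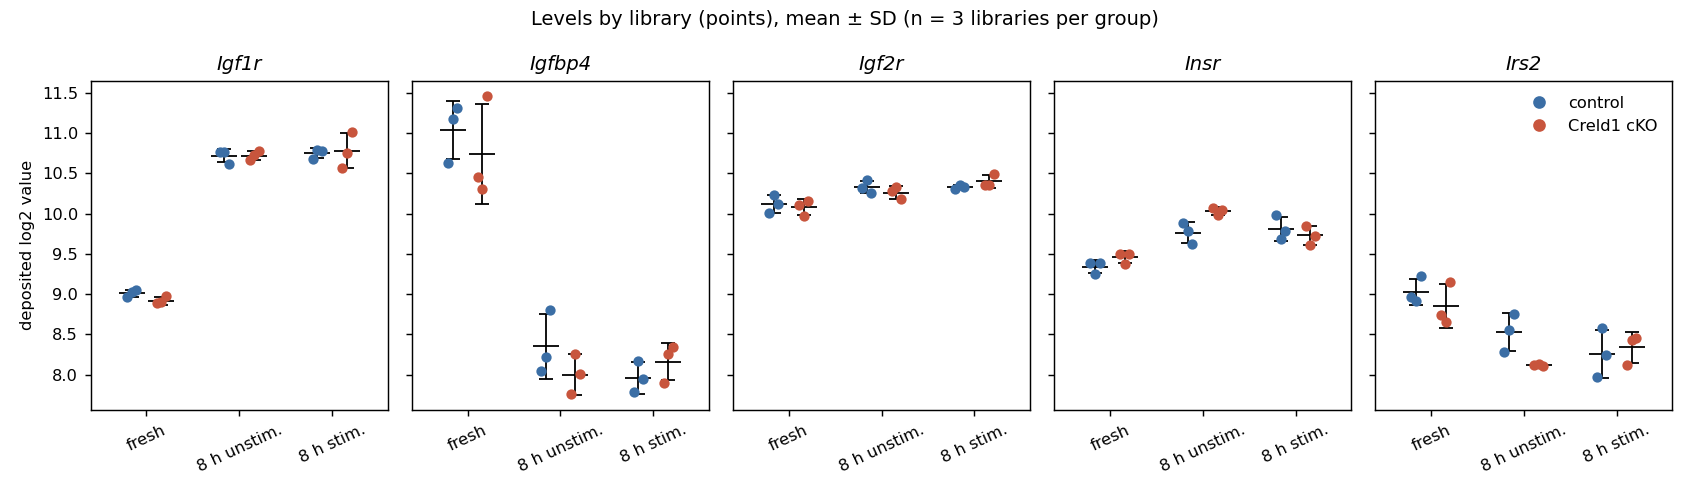
Deposited log2 values (vertical axis) of the 5 genes in fresh cells and after 8 h of culture without or with stimulation (horizontal axis), for control (blue) and Creld1 cKO (red) libraries; points are libraries and bars are mean ± SD, n = 3 per group. The cultured Igf1r values, 10.57 to 11.01, lie above the fresh ones, and the cultured Igfbp4 values, 7.76 to 8.80, lie below the fresh ones, 10.31 to 11.46.

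Insr encodes the insulin receptor, the closest relative of Igf1r, with which it can form hybrid receptors. It lies at chr8:3122061-3279617 on the minus strand. Its values were 9.39, 9.25 and 9.39 in fresh control cells and 9.50, 9.37 and 9.50 in fresh Creld1 cKO cells. In unstimulated culture they were 9.88, 9.78 and 9.62 in control and 10.07, 9.98 and 10.04 in Creld1 cKO cells. In stimulated culture they were 9.98, 9.69 and 9.78 in control and 9.85, 9.61 and 9.72 in Creld1 cKO cells. The 6 fresh libraries, from 9.25 to 9.50, and the 12 cultured ones, from 9.61 to 10.07, did not overlap. How many of all tested genes did the same is not given here, so nothing is read from it. The difference in unstimulated culture was 0.42 ± 0.09 in control cells, or 1.34-fold, and 0.58 ± 0.09 in Creld1 cKO cells, or 1.49-fold. In stimulated culture the differences were 0.47 in control and 0.27 in Creld1 cKO cells. Leaving out the third fresh Creld1 cKO library gave 0.60 in unstimulated and 0.29 in stimulated Creld1 cKO cells. Insr thus had the same sign as Igf1r at a smaller size. The antisense gene Gm16180 and the pseudogene Vmn2r-ps88 overlap Insr on the other strand, with 0 bases shared between exons.

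Igf2r encodes the cation-independent mannose 6-phosphate receptor, which has no kinase domain and takes Igf2 into the cell for breakdown. It lies at chr17:12682406-12769664 on the minus strand. It had the smallest difference of the 5 genes in unstimulated culture. Fresh libraries ranged from 9.97 to 10.23, with a median of 10.11, and cultured libraries from 10.18 to 10.49, with a median of 10.33, so the ranges overlapped. The differences in unstimulated culture were 0.21 ± 0.08 in control cells and 0.18 ± 0.08 in Creld1 cKO cells. Within each genotype every library of unstimulated culture was above every fresh one, by a narrow gap. The lowest cultured and highest fresh values were 10.25 and 10.23 in control and 10.18 and 10.16 in Creld1 cKO cells. How many of all tested genes were separated in this way is not given here, so nothing is read from it. The differences in stimulated culture were 0.21 in control and 0.32 in Creld1 cKO cells. With the third fresh Creld1 cKO library left out, Creld1 cKO cells had differences of 0.22 in unstimulated and 0.36 in stimulated culture. The library kit does not mark strand, and the span of the antisense RNA Airn overlaps that of Igf2r by 28354 bases, with 0 bases shared between annotated exons. Unspliced reads of Airn within exons of Igf2r cannot be told apart from those of Igf2r.

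Igfbp4 encodes a secreted binding protein that keeps insulin-like growth factors from their receptors until it is cut by the protease Pappa. It lies at chr11:99041244-99054392 on the plus strand. Its values were 10.63, 11.17 and 11.31 in fresh control cells and 10.45, 10.31 and 11.46 in fresh Creld1 cKO cells. In unstimulated culture they were 8.04, 8.22 and 8.80 in control and 7.76, 8.25 and 8.01 in Creld1 cKO cells. In stimulated culture they were 7.78, 8.17 and 7.94 in control and 7.90, 8.25 and 8.34 in Creld1 cKO cells. The fresh libraries, from 10.31 to 11.46, all lay above the cultured ones, from 7.76 to 8.80, and the third fresh Creld1 cKO library was the highest of all. The level in unstimulated culture was lower by a log2 difference of -2.68 ± 0.27 in control cells, 6.42-fold, and of -2.74 ± 0.27 in Creld1 cKO cells, 6.67-fold. By size these were rank 4 and rank 6 among the 10877 genes tested. Stimulated culture gave -3.07 in control cells, 8.42-fold, and -2.58 in Creld1 cKO cells, 5.98-fold. Without the third fresh Creld1 cKO library the differences in Creld1 cKO cells were -2.38 in unstimulated and -2.22 in stimulated culture.

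Irs2 encodes the insulin receptor substrate adaptor that couples both receptor kinases to PI3K. It lies at chr8:10984681-11008458 on the minus strand. Its values were 8.96, 8.92 and 9.22 in fresh control cells and 8.74, 8.65 and 9.15 in fresh Creld1 cKO cells. In unstimulated culture they were 8.28, 8.55 and 8.75 in control and 8.12, 8.13 and 8.11 in Creld1 cKO cells. In stimulated culture they were 7.97, 8.58 and 8.24 in control and 8.12, 8.43 and 8.46 in Creld1 cKO cells. Cultured libraries, from 7.97 to 8.75, were mostly below the fresh ones, from 8.65 to 9.22, with overlap at the third unstimulated control library. The differences in unstimulated culture were -0.50 ± 0.16 in control cells and -0.73 ± 0.16 in Creld1 cKO cells. They were -0.77 and -0.51 in stimulated culture. Without the third fresh Creld1 cKO library those of Creld1 cKO cells were -0.58 and -0.36. The transcript 9530052E02Rik overlaps Irs2 on the other strand, with 162 bases in exons, and its reads cannot be told apart.

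In bulk RNA, fewer cells of a type and less RNA per cell cannot be told apart. Some marker sums moved with culture. On the linear scale, the 6 memory and effector markers, of which 3 reached the minimum, summed to 503 to 581 in fresh, 260 to 303 in unstimulated and 280 to 352 in stimulated libraries. Among them S100a4, with a mean log2 value of 1.23, did not reach the minimum. The 4 regulatory T cell markers, all at the minimum or above, summed to 757 to 879 in fresh, 416 to 507 in unstimulated and 533 to 694 in stimulated libraries. The 7 myeloid markers, 2 at the minimum, summed to 70 to 96 in fresh and 47 to 62 in cultured libraries. The 6 CD8 T and NK markers, 2 at the minimum, summed to 175 to 272 in fresh and 126 to 189 in cultured libraries. The naive CD4 markers summed to 51634 to 56105 in fresh, 61388 to 63735 in unstimulated and 55760 to 60504 in stimulated libraries. The part of these shifts in the differences of the 5 genes was not tested.

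Levels of different genes were compared per kb of merged annotated exons. In fresh control cells the log2 level per kb was 8.89 ± 0.36 (SD, n = 3) for Igfbp4, 6.90 ± 0.11 for Igf2r, 6.37 ± 0.16 for Irs2, 5.56 ± 0.08 for Insr and 4.94 ± 0.04 for Igf1r. Fresh Creld1 cKO cells had the same order, and no neighbours in it overlapped in either group. In unstimulated control cells Igf2r was first at 7.11 ± 0.08, followed by Igf1r at 6.65 ± 0.08, Igfbp4 at 6.21 ± 0.40, Insr at 5.98 ± 0.13 and Irs2 at 5.86 ± 0.24. The neighbours from Igf1r down to Irs2 overlapped there. Igf1r was last of the 5 in fresh cells and second in all 4 cultured groups, while Igfbp4 went from first to below both Igf1r and Igf2r. With the length of the longest transcript instead, the level of Igf1r was above that of Igf2r in all 4 cultured groups, with overlapping libraries. Igfbp4 then lay below Insr in all 4, with overlapping libraries in unstimulated control and in stimulated Creld1 cKO cells. Insr passed Irs2 in fresh Creld1 cKO cells, where their libraries overlapped.

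**Figure D2:**
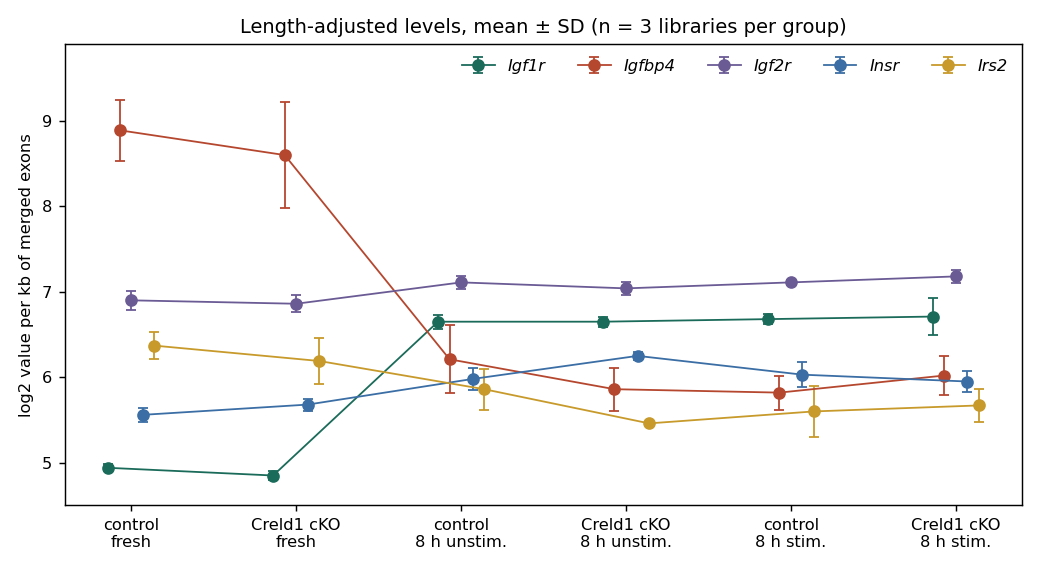
Log2 level per kb of merged exons (vertical axis) of the 5 genes in the 6 groups (horizontal axis), as mean ± SD of 3 libraries. Igfbp4, at 8.89 in fresh control cells, is the highest in fresh cells, and Igf1r, at 4.94, the lowest, while the 5 genes lie closer together in culture.

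Ligands for these receptors were scarce in the RNA. Igf1 had a mean log2 value of -0.42 over the 18 libraries, from -0.51 to -0.26, and Igf2 one of 1.26, from 1.03 to 1.72, and neither reached the minimum level. Ins1, Ins2, Igfbp1, Igfbp2, Igfbp3, Igfbp5, Igfbp6 and Igfbp7 were not analysed here. Igfals, a carrier subunit of circulating growth factor complexes, was at -0.91, Stc1, an inhibitor of the Pappa proteases, at 1.45, and Pappa2 at 1.64. Irs1, the other main adaptor of the family, had a mean of 1.48 and did not reach the minimum either. Low genes vary less on this scale than high ones (median SD within groups 0.0846 for means below 0 and 0.145 for means of 8 to 11), so small differences among them are not read.

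Of the 106 other genes listed for the pathway, 91 had a value and 79 were tested. In unstimulated culture 9 of the 79 rose and 15 fell in control cells, and 7 rose and 11 fell in Creld1 cKO cells (limma, Benjamini-Hochberg adjusted p under 0.05). These shares lie near or under the 14.9% and 14.1%, and the 10.7% and 11.4%, of all tested genes for higher and for lower calls, except that lower calls were 15 of 79 in control cells. The median difference of the 79 genes was 0.03 in control and -0.03 in Creld1 cKO cells, beside 0.04 and -0.02 over all tested genes.

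Among the 15 PI3K and Akt genes, 4 fell in each genotype. Foxo1, the transcription factor restrained by Akt, fell by 0.76 in control cells (limma adjusted p = 1.88e-05) and by 0.62 in Creld1 cKO cells (adjusted p = 0.000152). Of the 3 listed regulatory subunits of PI3K, Pik3r1 and Pik3r3 fell in both genotypes and Pik3r2 was not called. Pik3r1 differed by -0.77 and -0.57 in control and Creld1 cKO cells, and Pik3r3 by -0.63 and -0.78, with limma adjusted p of 0.00154, 0.013, 0.00057 and 0.00011.

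Among 18 brakes on the pathway, 3 rose and 6 fell in control cells and 3 rose and 5 fell in Creld1 cKO cells. Trib1, a pseudokinase scaffold, fell by 1.68 and 1.70 in control and Creld1 cKO cells (limma adjusted p = 1.11e-05 and 1.1e-05). Phlpp1, a phosphatase of Akt, rose by 0.80 and 0.99 (adjusted p = 1.6e-05 and 2.12e-06). Trib3, a stress-induced pseudokinase that can bind Akt, rose from 5.22 ± 0.25 to 6.98 ± 0.35 in control cells (adjusted p = 2.34e-05). In Creld1 cKO cells Trib3 rose by 0.81 and was also called. Trib3 was the only listed gene called on stimulation, falling by 1.12 in control cells (limma adjusted p = 0.0316). Phlpp2 rose by 0.57 in Creld1 cKO cells (adjusted p = 0.00111). Members of the same list thus went in both directions, and its median difference was -0.09 in control and -0.12 in Creld1 cKO cells.

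Of 16 genes of the mTORC1 branch, 3 rose and 1 fell in control cells, and 2 rose in Creld1 cKO cells. Eif4ebp2, a repressor of cap-dependent translation, rose by 0.51 and 0.53 (limma adjusted p = 0.000402 and 0.000303). Tsc1, a subunit of the complex that restrains mTORC1, rose by 0.39 and 0.41 (adjusted p = 0.000503 and 0.000378). In control cells Eif4ebp1 rose by 0.76 (adjusted p = 0.00753) and the S6 kinase gene Rps6kb1 fell by 0.35 (adjusted p = 0.0259). Of 13 tested adaptors near the receptors, Grb2, which links receptors to Ras, fell by 0.38 in control and 0.54 in Creld1 cKO cells (limma adjusted p = 0.00609 and 0.000511). Gigyf1, a Grb10-interacting protein, rose by 0.82 in control cells (adjusted p = 0.0465).

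The list named for mannose 6-phosphate receptor sorting had 15 tested genes, and some, such as Igf2bp3, have other roles. Among them Gga2, a sorting adaptor, rose by 0.56 and 0.44 in control and Creld1 cKO cells (limma adjusted p = 0.00265 and 0.0142). Gnptab, part of the enzyme that makes the mannose 6-phosphate tag, fell by 0.39 in control cells (adjusted p = 0.0311). Both tested members of the ligand list were relaxin-like hormones of low level. Insl6 fell by 0.68 and 0.69 (limma adjusted p = 0.0172 and 0.018), and Insl3 fell by 0.47 in control cells (adjusted p = 0.0446), from a mean of 4.15 ± 0.21 to 3.68 ± 0.01.

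**Figure D3:**
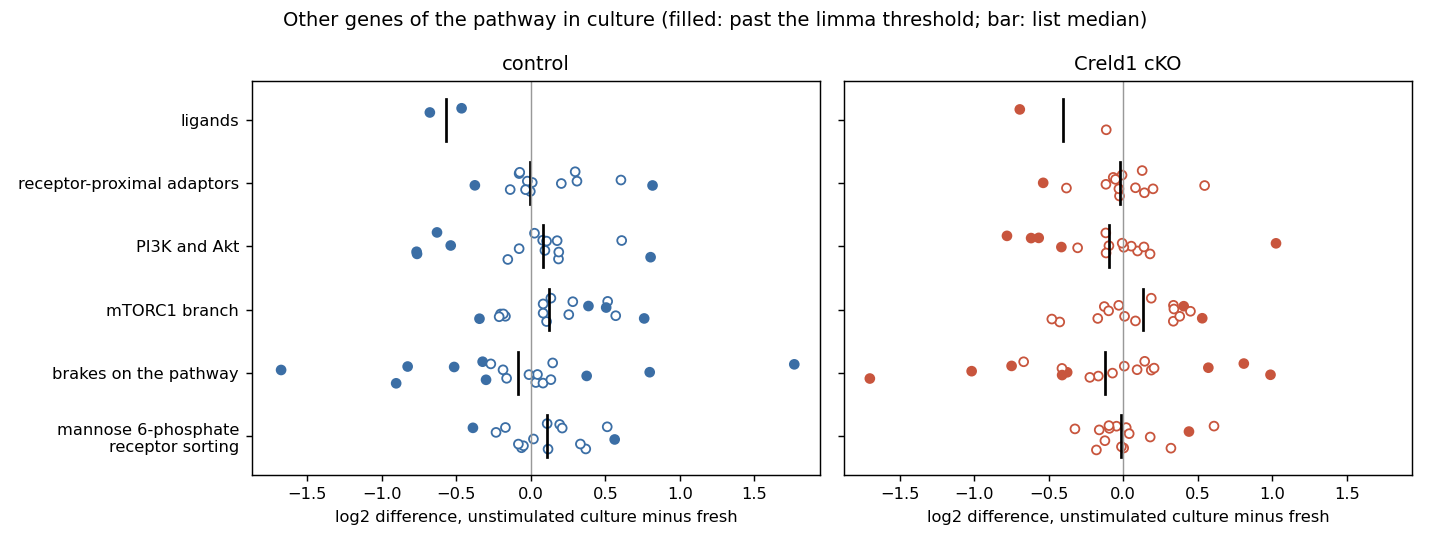
Log2 differences between unstimulated culture and fresh cells (horizontal axis) of the other tested genes of the pathway, by list (vertical axis), in control (left) and Creld1 cKO cells (right); each circle is a gene, filled where limma called it, and the bar is the list's median. Called genes lie on both sides of 0 in the PI3K and Akt list and in the brakes in both panels, with Trib1 lowest at -1.68 and Trib3 highest at 1.77 in control cells.

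The genes most like Igf1r and Igfbp4 were taken as the 5 tested genes with the highest Pearson r over the 18 libraries. The 18 libraries share the step from fresh to cultured cells, so r is a description only. For Igf1r they were Fam169b (r = 0.988), the pyrophosphate transporter Ank (0.986), the exonuclease Exo5 (0.982), the leukocyte surface protein Cd101 (0.981) and the Rab GTPase-activating protein Tbc1d4 (0.980). Fam169b had means of 10.65 in fresh, 11.87 in unstimulated and 11.84 in stimulated cells. It lies at chr7:68273839-68363092, 40.2 kb from Igf1r, with 1 annotated gene between them, Pgpep1l, at chr7:68236610-68264233. Pgpep1l, looked at after the place of Fam169b was seen, had means of 5.29 in fresh, 6.62 in unstimulated and 6.84 in stimulated cells, with r = 0.959 to Igf1r. The values of these 3 neighbouring genes were thus all higher in culture. For Igfbp4 the genes were Jun (r = 0.993), Flt3l (0.991), Sik1 (0.991), Fosb (0.988) and Ppp1r15a (0.988). Jun and Fosb encode subunits of AP-1, Sik1 a salt-inducible kinase, Flt3l a haematopoietic growth factor and Ppp1r15a a phosphatase subunit induced by stress. Jun had means of 10.42 in fresh, 7.06 in unstimulated and 7.13 in stimulated cells.

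Stimulation for 8 h was compared with culture for 8 h without antibodies. Igf1r differed by 0.03 ± 0.09 (SE) in control and 0.05 ± 0.09 in Creld1 cKO cells, and Igfbp4 by -0.39 ± 0.27 and 0.16 ± 0.27. These values have no test, because the unstimulated libraries also served in choosing the genes. Neither gene's stimulated libraries were separated from the unstimulated ones in either genotype. Igf2r differed by 0.00 ± 0.08 in control cells (limma adjusted p = 0.985) and by 0.14 ± 0.08 in Creld1 cKO cells (adjusted p = 0.259, 3 of 3 libraries higher). Insr differed by 0.05 ± 0.09 in control cells (limma adjusted p = 0.782). In Creld1 cKO cells all 3 stimulated libraries, from 9.61 to 9.85, were below the unstimulated ones, from 9.98 to 10.07, a difference of -0.31 ± 0.09 that was not called (adjusted p = 0.175, 95% interval -0.50 to -0.11). The share of all tested genes with libraries separated on stimulation is not given here, so nothing is read from such separation. Irs2 differed by -0.27 ± 0.16 in control (limma adjusted p = 0.505) and 0.22 ± 0.16 in Creld1 cKO cells (adjusted p = 0.384). None of the 3 tested members was called, where 0.313% of all tested genes were called higher and 0.0368% lower in control cells, and 0.276% higher and 0.00919% lower in Creld1 cKO cells. When only the libraries of both unstimulated and stimulated Creld1 cKO cells were fitted, the Insr difference passed the threshold (limma adjusted p = 0.0282), as 2349 of the 10877 genes then did. With runs of library numbers as a block it did not (limma adjusted p = 0.0507).

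The genotype comparison tested whether loss of Creld1 changed the 5 genes in each condition. In fresh cells the differences of Creld1 cKO from control were -0.09 ± 0.09 (SE) for Igf1r, -0.30 ± 0.27 for Igfbp4, -0.04 ± 0.08 for Igf2r, 0.11 ± 0.09 for Insr and -0.18 ± 0.16 for Irs2. The limma adjusted p was 0.863 for Igf2r and 0.790 for the other genes, and the libraries overlapped for all 5. In this comparison 0.00919% of all tested genes were called. Without the third fresh Creld1 cKO library the Igfbp4 difference was -0.65 (limma adjusted p = 0.0629) and that of Irs2 -0.33 (adjusted p = 0.149), while 1193 genes were then called. The values for Igf1r, Igf2r and Insr were -0.12, -0.08 and 0.09 (limma adjusted p = 0.381, 0.488 and 0.504). With the GC slope as covariate and all libraries kept, the Igfbp4 difference was -0.0226 (limma adjusted p = 0.976) and that of Irs2 -0.0401 (adjusted p = 0.943).

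In unstimulated culture the libraries of the 2 genotypes were separated for Insr and Irs2. The share of all tested genes separated in this way is not given here, so nothing is read from the separation. Insr was at 10.07, 9.98 and 10.04 in Creld1 cKO and 9.88, 9.78 and 9.62 in control cells, a difference of 0.27 ± 0.09 (SE, 95% interval 0.08 to 0.47, limma adjusted p = 0.103). All 3 Creld1 cKO libraries were above the control ones. Irs2 was at 8.12, 8.13 and 8.11 in Creld1 cKO and 8.28, 8.55 and 8.75 in control cells, a difference of -0.41 ± 0.16 (95% interval -0.76 to -0.06, limma adjusted p = 0.115), with all 3 Creld1 cKO libraries below the control ones. Neither was called. Igf1r differed by 0.01, Igfbp4 by -0.35 and Igf2r by -0.07 (limma adjusted p = 0.970, 0.340 and 0.509). Over all tested genes 0% were called by limma and 3606 had an unadjusted p under 0.05.

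Whether both genes were called depended on the fit. With only the 6 libraries of unstimulated culture, Insr (limma adjusted p = 0.0278) and Irs2 (adjusted p = 0.0270) passed the threshold, as 3737 genes then did. With runs of library numbers as a block, the adjusted p was 0.0484 for Insr and 0.0572 for Irs2, and 887 genes were called. Without the third fresh Creld1 cKO library it was 0.0384 for Insr and 0.0513 for Irs2, and 2837 genes were called. The GC slope had a mean of -0.126 in Creld1 cKO and 0.151 in control libraries here (exact two-sided permutation p = 0.10, the smallest that 3 against 3 can give). The means were -0.115 and -0.0049 in fresh cells (exact permutation p = 0.60). In stimulated culture they went the other way, at 0.091 and 0.00404 (exact permutation p = 0.50). As the slopes of the genotypes did not overlap in unstimulated culture, genotype and slope cannot be fully told apart there. Once the GC slope entered as a covariate, the Irs2 difference was -0.046 (limma adjusted p = 0.959) and the Insr difference 0.18 (adjusted p = 0.786). With block and slope together the Insr difference was 0.26 (limma adjusted p = 0.618) and that of Irs2 -0.12 (adjusted p = 0.886).

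In stimulated culture the differences were 0.02 ± 0.09 for Igf1r, 0.20 ± 0.27 for Igfbp4, 0.07 ± 0.08 for Igf2r, -0.09 ± 0.09 for Insr and 0.08 ± 0.16 for Irs2. The limma adjusted p was 0.981 for Igf1r and 0.974 for the others, with 0% of all tested genes called and 160 at an unadjusted p under 0.05. Averaged over the 3 conditions, the difference was -0.17 ± 0.10 for Irs2 and 0.10 ± 0.05 for Insr (limma adjusted p = 0.463 for both), and -0.15 ± 0.16 for Igfbp4 (adjusted p = 0.596), where 0.0184% of all tested genes were called. Without the third fresh Creld1 cKO library these were -0.22 for Irs2, 0.09 for Insr and -0.27 for Igfbp4 (limma adjusted p = 0.0812, 0.202 and 0.115), with -0.03 for both Igf1r and Igf2r (adjusted p = 0.687 and 0.684), and 1617 genes were called. The 95% intervals of the averaged differences were -0.13 to 0.09 for Igf1r, -0.11 to 0.08 for Igf2r and -0.48 to 0.18 for Igfbp4. The test of whether the genotype difference changed between conditions gave limma adjusted p of 0.753 for Igf1r, 0.516 for Igfbp4, 0.587 for Igf2r, 0.378 for Insr and 0.397 for Irs2, where 0.00919% of all tested genes were called. Without that library it gave 0.630, 0.112, 0.420, 0.118 and 0.168 in the same order (limma adjusted p). None of the 79 tested pathway genes was called in any genotype comparison.

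**Figure D4:**
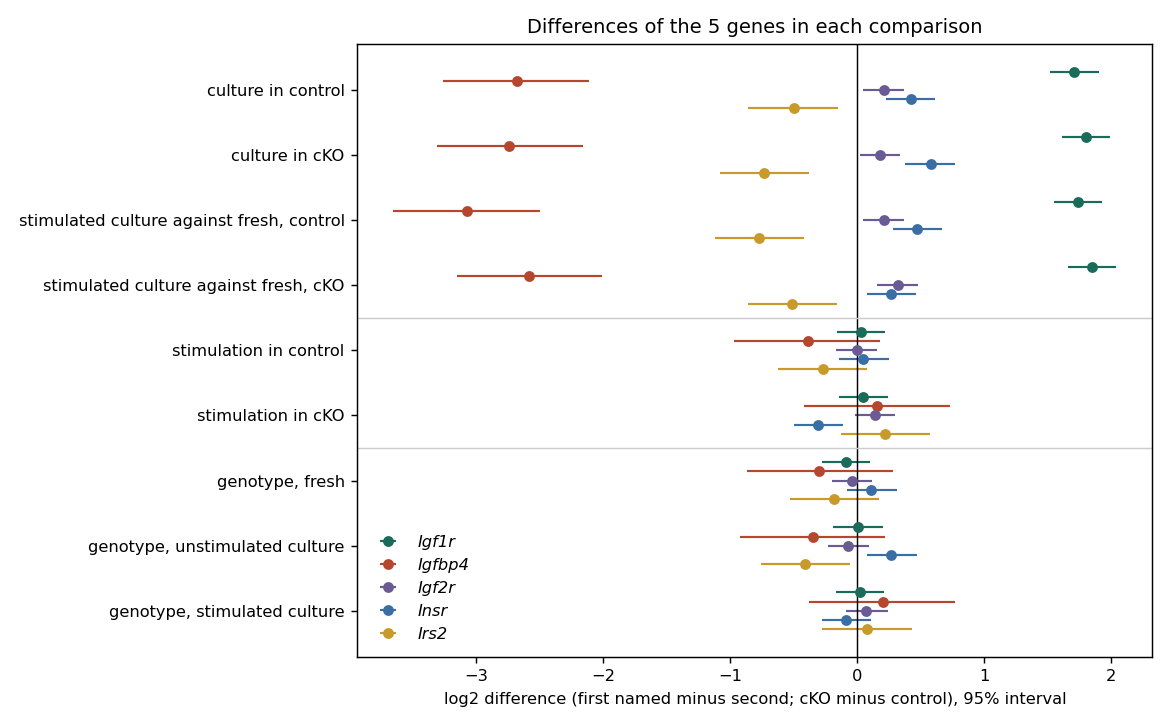
Log2 differences (horizontal axis) with 95% intervals of the 5 genes in 9 comparisons (vertical axis), from the model of all 18 libraries; the comparisons in the top block were used to choose the genes. Igf1r lies at 1.71 to 1.85 and Igfbp4 at -3.07 to -2.58 in culture against fresh cells, while the intervals for stimulation and genotype include 0, apart from those of Insr and Irs2 named in the text.

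Within groups, Igfbp4 and Irs2 followed the GC slope of the library. After group means were taken from both measures, Pearson r over the 18 libraries was 0.927 for Igfbp4 (exact permutation p = 0.0003, rearranging libraries within groups) and 0.834 for Irs2 (exact permutation p = 0.00107). Spearman rho was 0.922 and 0.804 (exact permutation p = 0.000193 and 0.00319). When the pair of libraries most distant from the median of the slopes less their group means was left out, r was 0.873 and 0.796 over 16 libraries. Igf2r had r = 0.633 (exact permutation p = 0.0282) and rho = 0.540 (p = 0.064), and r = 0.504 without that pair. Igf1r had r = 0.385 (exact permutation p = 0.0886) and rho = 0.315 (p = 0.231), and r = 0.394 without the pair. Insr had r = -0.416 (exact permutation p = 0.114) and rho = -0.564 (p = 0.0445), and r = -0.827 without the pair. These 5 relations were computed with no adjustment. Transcript GC content was 56.6% for Irs2, 55.1% for Igfbp4, 51.2% for Igf2r, 49.4% for Igf1r and 46.8% for Insr. The slope was computed from the same libraries over the tested genes with a GC value, these 5 included. Genes rich in GC are therefore expected to follow it by its construction. How many of all tested genes had an r of this size is not given here. Nothing particular to these genes is read from r or its p. With the GC slope as covariate, the culture difference of Igfbp4 in control cells was -3.07, as against -2.68 without it.

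**Figure D5:**
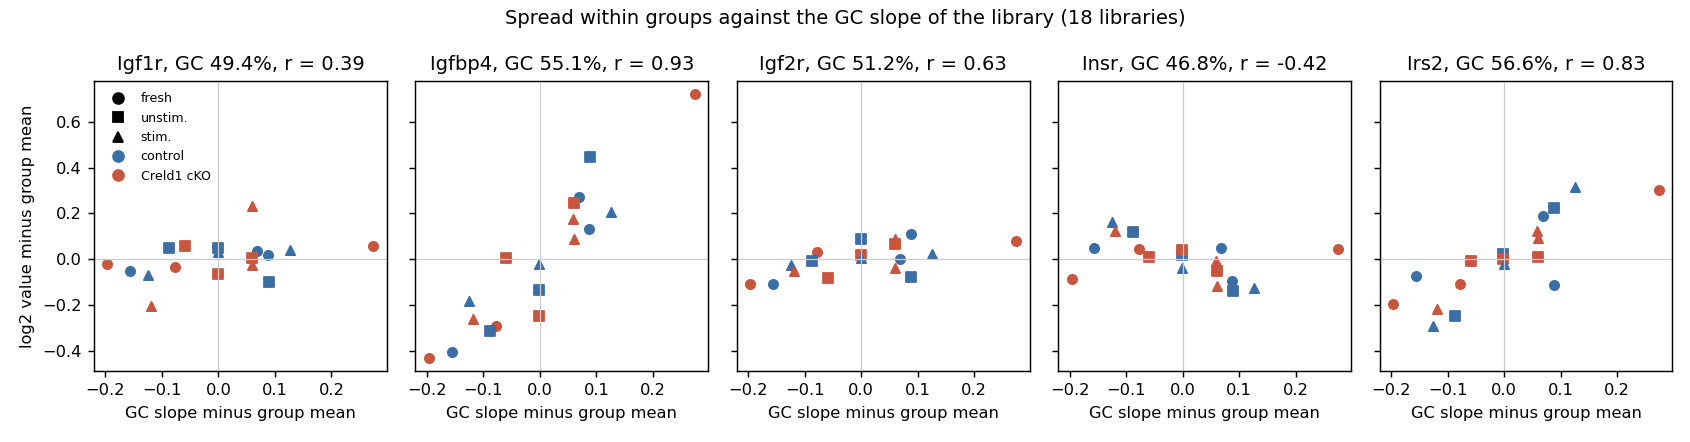
Log2 value minus the group mean (vertical axis) against GC slope minus the group mean (horizontal axis) for the 5 genes; each point is 1 of 18 libraries, with shape for condition and colour for genotype. The points of Igfbp4 (r = 0.927) and Irs2 (r = 0.834) rise along a line, and the point farthest right is the third fresh Creld1 cKO library.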

How the data were processed

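RNA from 18 libraries of sorted naive CD4+ T cells was made into TruSeq version 2 libraries and read as single ends of 75 bp, per the labels' protocols. The values deposited by the authors are normalized expression on a log2 scale, from -1.36 to 17.2. The log base was inferred from the values, and how they were transformed is not stated in the labels. CASAVA 1.8, HISAT2 2.1.0, SAMtools 1.4, Partek 6.6, DESeq2 and mm10 are named, with no role or order, per the submitters' processing notes. Whole reads could not be recovered, so depth is unknown and no counting interval is given. All 18 columns matched a sample, and 0 pairs of libraries were identical.

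Genes at a linear value of 10 or more in at least 3 libraries were tested (10877 genes, 71.9%). A model of 6 group means was fitted to all libraries with limma (version 3.58.1, R version 4.3.3), using empirical Bayes with a mean trend and two-sided tests (residual degrees of freedom 12, or 15.7 after moderation), and Benjamini-Hochberg adjustment over all tested genes at 0.05. The fit was tested on simulated data. Exon lengths, GC content and coordinates came from GENCODE M21 (GRCm38), and 99.3% of tested genes had a GC value.

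Groups came from sample titles. The members, lists, motifs and alternatives were chosen with earlier results of these data known. Named genes are the 5 members, up to 4 called genes of smallest p per list and comparison, listed genes below the minimum, and the 5 genes closest to Igf1r and to Igfbp4. Alternatives were other filters, pseudocounts of 5 and 0.5 on the linear scale, TMM-type scaling with trims of 30% and 5%, quantile normalization, fits of only the groups compared, no trend, a block for runs of library numbers, the GC slope as a covariate, both together, each library left out, and the longest transcript for length. The values of some single genes are left out of the text.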

Additional observations from a re-analysis of the deposited data

How the results depend on the processing

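Precision was limited by 3 libraries per group and by the unknown depth, and low genes are compressed on the deposited scale. Count-based tools were not run, since whole reads were not recovered. Over the alternatives and left-out libraries, the culture differences kept their sign for all 5 genes, from 1.66 to 1.85 for Igf1r and from -3.07 to -2.38 for Igfbp4 in unstimulated culture. Of 889 tested values of the members under the alternatives, 5 passed the threshold: Insr by genotype in unstimulated culture with only the groups compared (0.27, limma adjusted p = 0.0278), with the library-number run block (0.27, adjusted p = 0.0484) and without the third fresh Creld1 cKO library (adjusted p = 0.0384), Irs2 in the same comparison with only the groups compared (-0.41, adjusted p = 0.0270), and Insr on stimulation of Creld1 cKO cells with only the groups compared (-0.31, adjusted p = 0.0282). The causes of these changes were not tested.

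With the GC slope covariate, genotype differences changed sign for Igf2r in fresh cells (0.00392), in unstimulated culture for Igfbp4 (0.34) and Igf2r (0.0361), and in stimulated culture for Igf1r (-0.00167), Igfbp4 (-0.0165) and Irs2 (-0.038). The averaged differences did so for Igf1r (0.00845), Igfbp4 (0.0991) and Igf2r (0.0267). Stimulation differences changed sign for Igf2r in control (0.0521) and, in Creld1 cKO cells, for Irs2 (-0.066), Igf1r (-0.0131) and Igfbp4 (-0.38), and the Igfbp4 value was -0.0263 in control cells. In culture against fresh cells the values were -3.07 for Igfbp4 in unstimulated control cells, and in stimulated Creld1 cKO cells -3.09 for Igfbp4 and -0.78 for Irs2.

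With the run block and the GC slope together, genotype differences were 0.0147 for Igf2r in fresh cells, 0.22 for Igfbp4 and 0.0631 for Igf2r in unstimulated culture, -0.0162 for Irs2 in stimulated culture, and 0.0574 for Igfbp4 and 0.0364 for Igf2r on average. Stimulation differences were 0.0664 for Igf2r in control cells and, in Creld1 cKO cells, -0.29 for Igfbp4 and -0.0115 for Irs2. The Igf2r difference of stimulated Creld1 cKO from fresh cells was 0.22 there and 0.41 with quantile normalization, and TMM-type scaling gave 0.0123 for Igf2r on stimulation of control cells.

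Leaving out each library gave ranges that crossed 0 for these genotype differences: -0.0935 to 0.0177 for Igf2r in fresh cells, -0.0425 to 0.0363 for Igf1r in unstimulated culture, and -0.0923 to 0.13 for Igf1r and -0.071 to 0.23 for Irs2 in stimulated culture. Averaged over conditions they were -0.0597 to 0.0137 for Igf1r and -0.0299 to 0.00715 for Igf2r. On stimulation of control cells they were -0.0423 to 0.0387 for Igf2r, -0.0269 to 0.12 for Insr and -0.0158 to 0.0672 for Igf1r, which in Creld1 cKO cells ranged from -0.0655 to 0.15. The Insr range by genotype in unstimulated culture was 0.20 to 0.33.

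Counts of genes called over the whole table moved more. By genotype in unstimulated culture the count of 0 became 5 with no filter, 2 with either pseudocount, with TMM-type scaling or with no trend, 1 with quantile normalization, 3737 with only the groups compared and 887 with the run block. Left-out libraries gave 0 to 2837 there, 1 to 1193 in fresh cells, 1 to 1617 averaged over conditions, 0 to 1 for the interaction, 4 to 124 for stimulation in control and 11 to 336 in Creld1 cKO cells. The highest count of each of these ranges but that of the interaction came without the third fresh Creld1 cKO library. In fresh cells a minimum of 50 and only the groups compared gave 0. For the averaged difference the count was 1 with no filter, TMM-type scaling or quantile normalization, 0 with a minimum of 50, 7 with the run block, 9 with the GC slope and 11 with both. For the interaction it was 2 with no filter, and 0 with a minimum of 50 or with block and slope. Stimulation in control cells, 38 in the model of all groups, gave 61 with quantile normalization, 7 with only the groups compared, 321 with the GC slope and 240 with block and slope. Stimulation in Creld1 cKO cells, 31 in that model, gave 2349 with only the groups compared, 153 with the run block, 72 with the slope and 139 with both. Culture in Creld1 cKO cells, 2408 in that model, gave 811 with only the groups compared, 4935 with the slope and 5008 with both.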
